A study of Homo sapiens with 27 samples.

Results

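The mitochondrial genome carries its own small set of genes, and all 37 of them were followed here across 27 RNA-sequencing libraries of REH cells. They were chosen by position: every one of the 60619 genes in the deposited tables that lies on the mitochondrial chromosome was taken, which gave 13 mRNAs, 2 rRNAs and 22 tRNAs. No measured value entered that choice. Each gene was counted on its own strand and, separately, on the opposite strand, because both strands of this genome are transcribed.

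All groups are cultures of REH, a human cell line established from B-cell precursor leukemia (BCP-ALL) whose cells express an ETV6/RUNX1 fusion. The study lowered 4 lncRNAs linked to that fusion, each with 2 LNA GapmeRs (antisense oligonucleotides that direct RNase H to a matching RNA), and asked how transcription responded. Cells received medium alone (n = 2) or 10 µM of a GapmeR through passive uptake (gymnosis), and RNA was taken after 72 h. The GapmeRs were a non-targeting control, NTC (n = 3), GapmeR1 and GapmeR2 against lnc-TIMM21-5 (n = 3 and 3), lnc-NKX2-3-1 (n = 2 and 3), lnc-RTN4R-1 (n = 3 and 3) and lnc-ASTN1-1 (n = 3 and 2). Per the methods, the triplicates of these experiments were made on different days. No source used here states that a number marks the same day in every treatment, but 26 of the 27 libraries correlated best with libraries of their own number. Replicate 1 had 10 libraries, replicate 2 had 9 and replicate 3 had 8.

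Mitochondrial DNA is a circle with a heavy and a light strand, and each is transcribed into long RNAs that hold many genes in a row. The tRNAs lie between most mRNAs and rRNAs and are cut out by RNase P and RNase Z, which frees the other RNAs, and most mRNAs then receive a short poly-A tail. The mRNAs encode core subunits of the respiratory chain and of ATP synthase, whose other subunits come from nuclear genes, and the rRNAs MT-RNR1 and MT-RNR2 build the mitochondrial ribosome. Genes read from the heavy-strand transcript are annotated on the plus strand of the reference, and the 9 genes read from the light-strand transcript, MT-ND6 and 8 tRNAs, on the minus strand.

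Some mitochondrial genes touch or overlap, and these stretches decide what a count per gene can show. In the counts by strand, reads that overlapped 2 genes of the same strand were not counted. The sequences below are shown because MT-ATP8 and MT-ND4L lose part of their length in this way and because MT-ND6 follows MT-ND5 with no tRNA between them. They were read from hg38 on the plus strand, 5′ to 3′. Capitals mark bases that belong to both genes, and in the last one the bases of the plus strand that face the end of MT-ND6.
MT-ATP8/MT-ATP6, chrM:8512-8587: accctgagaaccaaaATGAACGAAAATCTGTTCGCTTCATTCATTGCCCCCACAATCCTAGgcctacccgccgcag
MT-ND4L/MT-ND4, chrM:10730-10796: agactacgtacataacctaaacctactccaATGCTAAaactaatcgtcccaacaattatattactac
MT-ATP6/MT-CO3, chrM:9177-9237: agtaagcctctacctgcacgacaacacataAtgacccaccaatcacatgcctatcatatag
MT-ND5/MT-ND6, chrM:14119-14178: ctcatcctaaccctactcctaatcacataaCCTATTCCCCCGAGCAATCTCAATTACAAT
In the first, the overlap of 46 bases opens with the start codon of MT-ATP6 and covers the end of MT-ATP8, which leaves MT-ATP8 161 of its 207 bases. In the second, 7 bases are shared, and in the third 1 base.

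Total counts on genes ran from 14627110 to 22750945 per library (median 18776820). Each of the 4 targeted lncRNAs was lower in every library given its own GapmeRs than in every control library (lnc-RTN4R-1 at 3.40 to 6.44 CPM (TMM-scaled counts relative to library size) against 18.3 to 24.4, and lnc-NKX2-3-1, the lowest, at 0 to 4 counts against 6 to 23). Of 13 B-cell precursor markers 12 were detected, VPREB1 being at 0 in every library, with a summed level of 5280 to 6696 CPM. The 8 libraries of replicate 3 stand apart from the others in many genes, and the values below are therefore also given within replicate numbers. The labels describe ribodepleted total RNA and the methods poly-A RNA. RMRP and RPPH1 had 0 counts and RN7SL1 at most 2 in any library, all RNAs without a poly-A tail. MALAT1 had 3039 to 9104 counts. These counts do not settle which description holds, and reads that matched several places were not counted. These nuclear genes were chosen after their values were seen, and their bearing on the mitochondrial RNAs was not tested.

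Mitochondrial genes held a median of 4.54% of all gene counts. The lowest share was 3.80% in replicate 3 of lnc-NKX2-3-1 GapmeR2 and the highest 5.05% in replicate 3 of lnc-RTN4R-1 GapmeR2. The same 2 libraries had the lowest and the highest share of uniquely mapped reads assigned to genes (80.0% and 84.0%), and the part of this in the range was not tested. Counting error was small beside this range, since the widest 95% Wilson interval reached 0.0108 percentage points to either side. Intervals and floors here cover counting error only, as PCR copies are not separate molecules. By group, the share was 4.97% ± 0.062 (SD, n = 3) with lnc-RTN4R-1 GapmeR2, 4.36% ± 0.31 (SD, n = 3) with NTC and 4.26% ± 0.40 (SD, n = 3) with lnc-NKX2-3-1 GapmeR2. The other 7 groups had means from 4.38% to 4.58%. By replicate number, the mean share was 4.56% ± 0.17 (SD, n = 10), 4.64% ± 0.14 (n = 9) and 4.37% ± 0.38 (n = 8) in replicates 1, 2 and 3, and that of the rRNAs alone 0.673%, 0.695% and 0.601%. In bulk RNA, fewer mitochondria, fewer copies of the genome and less RNA from each copy cannot be told apart.

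To compare genes, CPM was divided by the length in kb that belongs to 1 gene only. Cytochrome c oxidase (complex IV) had the highest mRNAs: MT-CO2 at 7887 ± 779 CPM per kb (SD, n = 27), MT-CO3 at 6820 ± 611 and MT-CO1 at 5312 ± 357. This order of the 3 held in each of the 27 libraries. Then came MT-ND4, a subunit of complex I, at 4290 ± 319, MT-RNR2 (16S rRNA) at 3893 ± 341 and MT-ATP6, a subunit of ATP synthase, at 3832 ± 326, and the order of MT-RNR2 and MT-ATP6 was within their spread, since MT-RNR2 was the higher in 15 of 27 libraries. MT-CYB, the only mitochondrially encoded subunit of complex III, was at 2695 ± 253, above MT-ND4L (2484 ± 241) in 24 libraries. MT-ATP8 was at 2080 ± 530. Further complex I subunits were close together, with MT-ND1 at 1933 ± 159, MT-ND2 at 1693 ± 138, MT-ND3 at 1691 ± 204 and MT-ND5 at 1688 ± 108 CPM per kb. MT-ND1 was above MT-ND2 in 27 of 27 libraries, whereas MT-ND2 exceeded MT-ND3 in 12 and MT-ND3 exceeded MT-ND5 in 15, so the last 3 have no order. At the bottom, MT-RNR1 (12S rRNA) was at 561 ± 75.7 and MT-ND6 at 191 ± 36.4 CPM per kb, each below its upper neighbour in all 27 libraries.

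**Figure D1:**
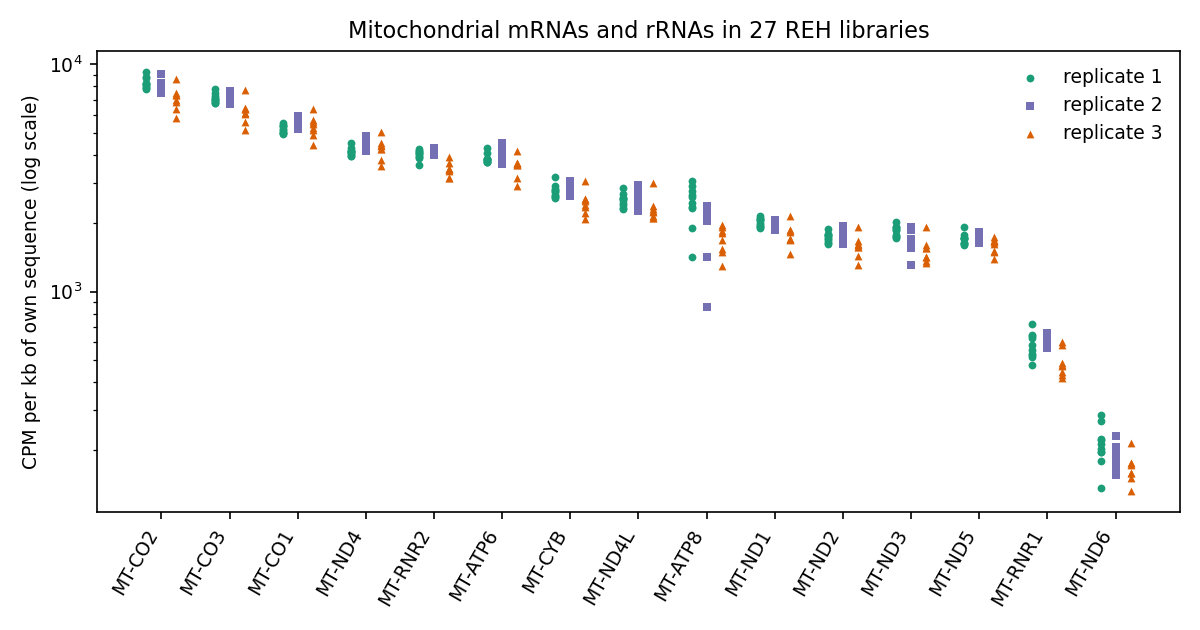
Levels of the 13 mRNAs and 2 rRNAs in CPM per kb of sequence that belongs to 1 gene only, on a log scale, in order of their mean. Each point is 1 of 27 libraries, with replicate 1, 2 and 3 as circles, squares and triangles. MT-CO2 (5826 to 9289) is the highest and MT-ND6 (133 to 287) the lowest gene, MT-ATP8 is the most widely spread, and many triangles lie at the low end of their gene.

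Summed over mRNAs, MT-CO1 took 21.2% of the counts on average, MT-ND4 15.2%, MT-CO2 13.9% and MT-CO3 13.8%, and MT-ATP8 and MT-ND6 took 0.862% and 0.258%. Among the mRNAs MT-ATP8, the smaller ATP synthase subunit, varied most between libraries, from 137 CPM in replicate 2 of lnc-TIMM21-5 GapmeR2 to 495 CPM in replicate 1 of lnc-RTN4R-1 GapmeR2. Its coefficient of variation was 25.5%, against 19.1% for MT-ND6, 13.5% for MT-RNR1 and 6.42% to 12.1% for the other genes. MT-ATP8 stood at 54.2% ± 12.6 of MT-ATP6 per kb (SD, n = 27), although both lie on the same mature RNA, and MT-ND4L at 58.0% ± 4.6 of MT-ND4. Both are partly counted genes, short beside a sequencing fragment and next to the overlaps shown above, and the part of this in their values was not tested. The 12S rRNA stood at 14.4% ± 1.1 of the 16S rRNA per kb. The part of the library preparation and of the nuclear matches given below in this ratio was not tested.

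Nuclear copies of mitochondrial DNA can take reads away from these counts, because a read that matches several places equally was not counted. The longest nuclear match of at least 98% identity lies at chr1:629081-634924 on hg38 and resembles bases 3911 to 9755 of the mitochondrial genome, from MT-ND1 to MT-CO3, with 98.5% of the aligned bases identical. Of all windows of 75 bases, 36.7% in MT-CO1, 34.4% in MT-ND2, 28.4% in MT-RNR1, 28% in MT-ATP6 and 17.1% in MT-ND1 also occur without a mismatch in the nuclear genome. The shares were 14.9% in MT-CO3, 10.5% in MT-CO2, 7.1% in MT-ND6, 3.37% in MT-RNR2 and 0.173% in MT-ND5, and 0% in MT-ATP8, MT-ND3, MT-ND4L, MT-ND4 and MT-CYB. How far this lowers the levels of the first 5 genes relative to the others was not tested. The read length is not given in the sources used here, and 75 bases is an example length.

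The tRNAs, which are 59 to 75 bases long, had few counts, between 543 and 989 per library over all 22. On their own strand 11 of the 22 tRNAs passed the low-count filter over all samples. MT-TT (tRNA-Thr), which follows MT-CYB, led with 345 to 700 counts per library (median 544), and the next highest medians were 59 for MT-TI, 49 for MT-TP and 46 for MT-TQ. MT-TN, MT-TK, MT-TG, MT-TR and MT-TL2 had 0 counts in all 27 libraries. A count of 0 allows up to 3 counts of reads on that gene alone, or 0.129 to 0.208 CPM depending on the library. Reads that also reached a neighbouring gene of the same strand were not counted, and MT-TG, MT-TR and MT-TL2 directly adjoin genes of their strand on both sides. Their counts of 0 are thus no measure of their level. For MT-TT the median was 544 on its own strand and 0 without strand. Without strand, reads that also reached a gene of the other strand were not counted either. The median without strand was also 0 for MT-TI, MT-TQ, MT-TE, MT-TS1, MT-TW, MT-TD and MT-TA. MT-TF, MT-TL1 and MT-TP kept medians of 24, 6 and 692. Own-strand counts of the tRNAs with a median of 0 thus hold reads that also cover a neighbouring gene, and do not measure the tRNA alone.

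The light-strand transcript could be followed because the libraries kept strand. Over MT-ND6, 51302 counts from all libraries fell on the gene's own strand and 428590 on the opposite strand, so that 89.3% came from the heavy-strand transcript (85.8% to 91.6% by library, with 95% Wilson intervals of at most 0.551 percentage points to either side). Without strand, MT-ND6 would have had a median of 14912 counts in place of 1845. Per kb, heavy-strand reads over MT-ND6 stood at 94.4% ± 4.1 of MT-ND5 (SD, n = 27), its upstream neighbour on that strand in the last sequence above, while the MT-ND6 RNA itself was at 12% ± 2.0 of the heavy-strand reads over the same bases. The light-strand tRNAs were also surrounded by reads on the other strand, with 10167 opposite-strand against 3 own-strand counts for MT-TC, 8746 against 30 for MT-TY, 32898 against 1262 for MT-TP and 5507 against 449 for MT-TE. Together the 8 light-strand tRNAs had 94.3% of their counts on the opposite strand, against 10.6% for the 14 heavy-strand tRNAs.

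Light-strand RNA was also counted opposite the heavy-strand genes, and its level depended on the place in the genome. It was highest over MT-ND5 and MT-ND3, with 251 ± 38.9 CPM per kb over MT-ND5 (SD, n = 27), 224 ± 40.1 over MT-ND3, then 191 over MT-ND6 itself, 130 over MT-ND4 and 71.1 over MT-ND4L. The RNA over MT-ND5 exceeded that over MT-ND6, a mean of 133% ± 12.3 (SD, n = 27), in every library (113% to 154%). It was 126 over MT-CO3, between 39.7 and 70.4 over MT-ATP8, MT-ND1, MT-CO2, MT-ATP6, MT-CYB and MT-ND2, and 20.7 over MT-CO1. Over the rRNAs almost none was seen, with 3.49 ± 1.14 CPM per kb over MT-RNR2 and 0.392 ± 0.249 over MT-RNR1. As a share of both strands this was 12.9% for MT-ND5, 11.6% for MT-ND3, 0.387% for MT-CO1, 0.0900% for MT-RNR2 and 0.0698% for MT-RNR1. For the 200 nuclear protein-coding genes with the most counts, the opposite strand held a median of 0.106% and at most 8.46% of a gene's counts. MT-ND5 and MT-ND3 lie above that maximum, and both rRNAs below that median. Among the 1000 such genes with the most counts, 6 exceeded 10%.

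**Figure D2:**
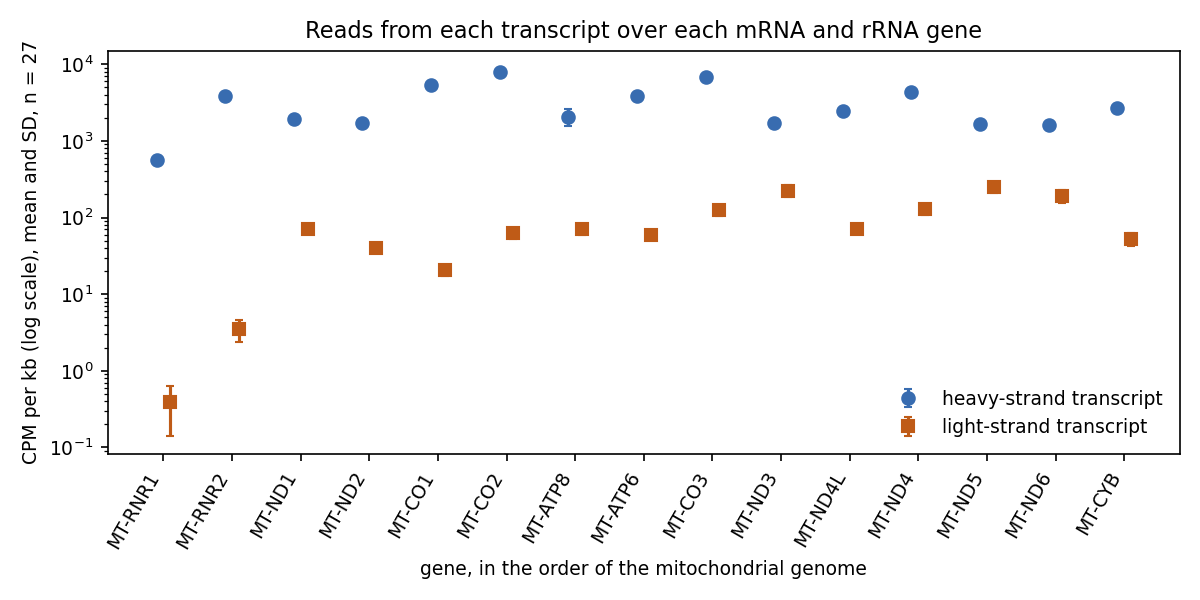
Mean level with SD over 27 libraries, in CPM per kb on a log scale, of reads from the heavy-strand transcript (circles) and the light-strand transcript (squares) over each mRNA and rRNA gene, in genome order. Heavy-strand reads exceed light-strand reads over every gene, MT-ND6 included, and light-strand reads run from 0.392 over MT-RNR1 to 251 over MT-ND5.

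The treatments were then compared. No GapmeR matched the mitochondrial genome closely, since each of the 9 oligonucleotides had at least 3 mismatches to its best site on either strand (3 to 5). In edgeR's quasi-likelihood test with Benjamini-Hochberg adjustment over all genes, 0 of the 15 mRNAs and rRNAs passed an adjusted p of 0.05 in any of 17 comparisons. Of these 255 tests, 13 had an unadjusted p under 0.05, and DESeq2 called 3. The log2 fold changes ran from -0.48 (MT-ATP8, lnc-ASTN1-1 GapmeR2 against controls) to 0.41 (MT-ATP8, lnc-ASTN1-1 GapmeR1 against GapmeR2), and in 254 of the 255 tests the 95% interval stayed within -1 and 1. The exception was MT-ATP8 between GapmeR1 and GapmeR2 of lnc-TIMM21-5, with 0.23 and an interval of -0.76 to 1.21.

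These counts of 0 are read against the share of all tested genes that passed. Both GapmeRs of a lncRNA together against the 5 controls changed 0.00665% of genes with lnc-TIMM21-5, 0.0136% with lnc-ASTN1-1, 0.476% with lnc-RTN4R-1 and 0% with lnc-NKX2-3-1. Single GapmeRs against the controls changed 17.6% and 0% (lnc-NKX2-3-1 GapmeR1 and GapmeR2), 1.59% and 6.62% (lnc-RTN4R-1), 0.079% and 0.0593% (lnc-TIMM21-5), and 0.718% and 0.013% (lnc-ASTN1-1). GapmeR1 against GapmeR2 gave 0.0784% in the lnc-TIMM21-5 arm, 0.146% in that of lnc-ASTN1-1, 5.92% in that of lnc-RTN4R-1 and 13% in that of lnc-NKX2-3-1, and NTC against medium 0%. For most comparisons the background was thus itself so low that a count of 0 among 15 genes says little. At the 6.62% and 5.92% of lnc-RTN4R-1 GapmeR2 a count of 0 is still near the background. It was higher for lnc-NKX2-3-1 GapmeR1 (17.6% and 13%). The 15 genes also vary together, so 0 calls tells less than it would for independent genes. The 3 comparisons with 0 called genes had 670 (NTC against medium), 615 (lnc-NKX2-3-1 GapmeR2) and 1104 (both lnc-NKX2-3-1 GapmeRs) genes at an unadjusted p under 0.05, and DESeq2 called 0, 9 and 10.

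Across groups the levels were close. The highest group mean CPM of a gene exceeded its lowest by 1.12-fold (MT-RNR2) to 1.68-fold (MT-ATP8), with a median of 1.24-fold over the 15 genes. lnc-RTN4R-1 GapmeR2 had the highest mean for 14 of the 15 genes and lnc-NKX2-3-1 GapmeR2 the lowest for 11. Medium and lnc-NKX2-3-1 GapmeR1 have no replicate 3, so that group means mix replicate numbers unequally. Within numbers, lnc-NKX2-3-1 GapmeR2 minus NTC was above 0 for 6, 3 and 1 of the 13 mRNAs in replicates 1, 2 and 3, with medians of -0.0040, -0.03 and -0.12. The median log2 fold change of the 13 mRNAs against controls was 0.21 for lnc-RTN4R-1 GapmeR2 and -0.09 for lnc-NKX2-3-1 GapmeR2, and between -0.04 and 0.05 for the other 6 single GapmeRs. It was -0.13 for NTC against medium, a comparison in which NTC has a replicate 3 library and medium none.

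With lnc-RTN4R-1 GapmeR2 the mitochondrial mRNAs had their highest group means, except MT-ATP8, which was highest with lnc-NKX2-3-1 GapmeR1. MT-CO2, a catalytic subunit of complex IV, was at 6353, 6208 and 5892 CPM in replicates 1, 2 and 3, against 5591, 5349 and 4375 with NTC, 5354 and 5526 in medium, and 5573, 5609 and 4652 with GapmeR1. The 3 libraries of GapmeR2 lay above all others of this set. Outside the set, MT-CO2 reached 6021 CPM with lnc-TIMM21-5 GapmeR2 and 5989 with lnc-NKX2-3-1 GapmeR1, above replicate 3 of lnc-RTN4R-1 GapmeR2. MT-CYB reached at most 3333 CPM there, with lnc-ASTN1-1 GapmeR1. MT-CYB, the cytochrome b of complex III, was at 3647, 3511 and 3496 CPM, against 2946, 3082 and 2533 with NTC, 3004 and 3333 in medium, and 3220, 3348 and 2745 with GapmeR1, again with no overlap. MT-ND3, of complex I, was at 701, 667 and 665 CPM, against 601, 537 and 463 with NTC, 643 and 590 in medium, and 667, 643 and 491 with GapmeR1. For MT-ND3 replicate 3 of GapmeR2 did not exceed replicate 1 of GapmeR1, so these groups overlapped. The share of all genes without overlap between these groups was not determined. Without the replicate number in the model, MT-CYB had a log2 fold change against controls of 0.26 ± 0.089 (SE) with an adjusted p of 0.109, the lowest of all 255 tests, and 7 of 13 mRNAs had an unadjusted p under 0.05, as had 3120 of the 15050 genes tested.

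**Figure D3:**
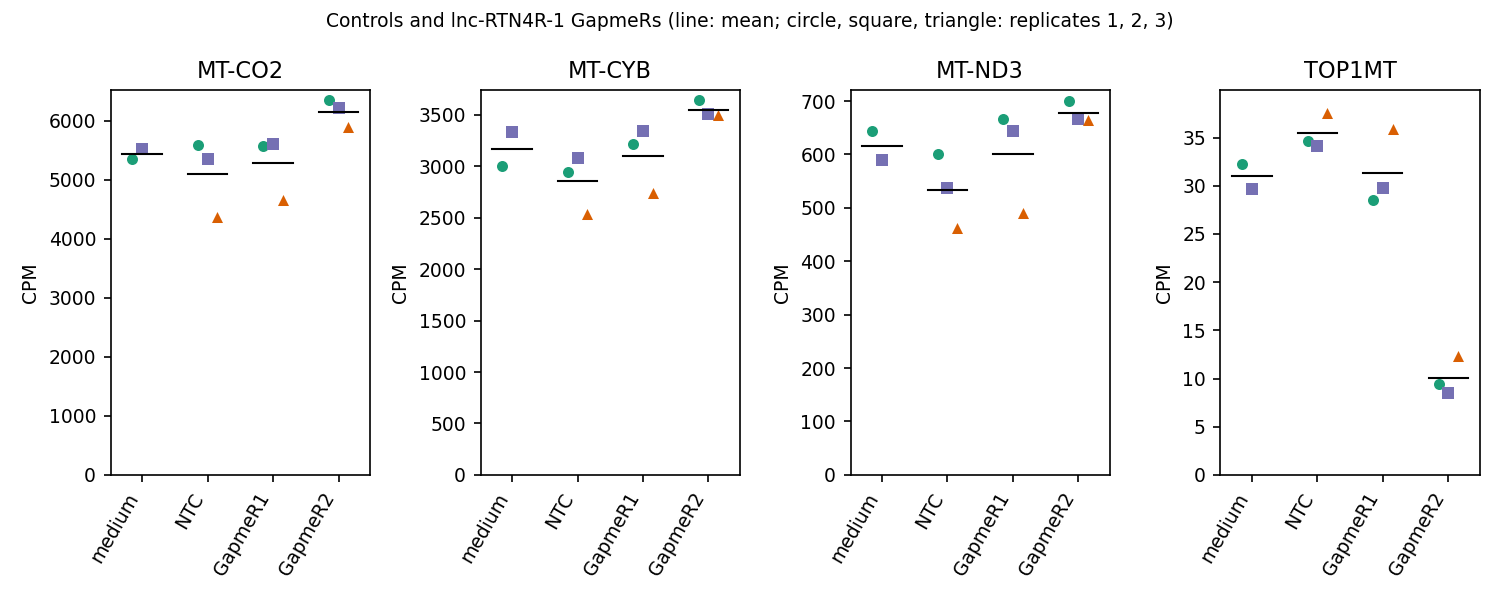
CPM of MT-CO2, MT-CYB, MT-ND3 and the nuclear gene TOP1MT in medium, NTC, lnc-RTN4R-1 GapmeR1 and GapmeR2. Each point is 1 library (circle, square and triangle for replicates 1, 2 and 3) and the line is the group mean. The group means of the 3 mitochondrial mRNAs are highest and that of TOP1MT is lowest with GapmeR2.

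With the replicate number as a block, 10 of the 13 mRNAs and MT-RNR1 were higher with lnc-RTN4R-1 GapmeR2 than in controls (edgeR adjusted p under 0.05), where 12% of all genes were higher. The fold changes were small and alike. MT-ND3 had 0.30 ± 0.057 on the log2 scale (SE, adjusted p = 0.000349), a 1.23-fold level with a 95% interval of 1.13 to 1.33. MT-CYB had 0.28 ± 0.059 (adjusted p = 0.000649) and MT-CO2 0.27 ± 0.059 (adjusted p = 0.00109). MT-ATP6 (0.24), MT-ND2 (0.23), MT-CO3 (0.22), MT-ND4L (0.22), MT-ND4 (0.21), MT-CO1 (0.20), MT-ND1 (0.16) and MT-RNR1 (0.22) also passed. MT-ATP8 (0.27), MT-ND6 (0.21), MT-ND5 (0.14) and MT-RNR2 (0.13) did not. Of the tRNAs MT-TS1 passed with 0.85 ± 0.31, from 4 to 24 counts per library.

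The direction was also read within replicate numbers, where NTC is shared between comparisons. Of the 13 mRNAs 12 come from the heavy-strand transcript, so they are not independent and the counts describe direction only. The share of all genes above 0 was not determined, here or for lnc-NKX2-3-1 GapmeR2 above. GapmeR2 minus NTC was above 0 for 13, 12 and 13 of the 13 mRNAs in replicates 1, 2 and 3, with median log2 differences of 0.21, 0.16 and 0.40. For 12 of the 13 it was above 0 in every number. GapmeR2 minus GapmeR1 was above 0 for 13, 12 and 12 mRNAs, with medians of 0.13, 0.07 and 0.34, and for 11 in every number. GapmeR1 minus NTC was above 0 for 10, 9 and 12 mRNAs, with medians of 0.13, 0.05 and 0.12, and for 6 in every number. The median difference was widest in replicate 3, in which NTC and GapmeR1 had their lowest MT-CO2, MT-CYB and MT-ND3. In an alternative chosen after seeing the data, with replicate 3 left out and no block, 1 of the 15 genes (MT-CO2, 0.20) passed against controls and 2 (MT-CO2 and MT-CO3) between both GapmeRs.

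Between both GapmeRs of lnc-RTN4R-1 the block gave 8 of 13 mRNAs lower with GapmeR1, against 15.3% of all genes. These were MT-CO2 (-0.22 ± 0.045), MT-CO3 (-0.22), MT-CYB (-0.20), MT-CO1 (-0.19), MT-ATP6 (-0.17), MT-ND4 (-0.15), MT-ND2 (-0.15) and MT-ND1 (-0.14). The rRNAs did not pass (MT-RNR1 -0.13, MT-RNR2 -0.08), and of the tRNAs MT-TI (-0.46) and MT-TS1 (-1.27) did. GapmeR1 itself differed from controls in 1 mRNA, MT-ND3 with 0.13 ± 0.041 (adjusted p = 0.0333), where 5.97% of all genes were higher. Pooling both GapmeRs gave 0 of 15 with and without the block, with a median over the mRNAs of 0.15 and 0.13, while 7 mRNAs with the block and 0 without had an unadjusted p under 0.05.

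Nuclear genes of mitochondrial function were read beside this. TOP1MT, which encodes the topoisomerase of mitochondria, was at 9.5, 8.5 and 12.3 CPM with lnc-RTN4R-1 GapmeR2, against 28.5, 29.7 and 35.9 with GapmeR1, 34.6, 34.1 and 37.6 with NTC, and 32.3 and 29.7 in medium. It fell with GapmeR2 (-1.73 ± 0.12, adjusted p = 1.56e-06) and not with GapmeR1 (-0.10, adjusted p = 0.888), and the direct test between both gave 1.64 ± 0.15 (adjusted p = 0.000249). It was the only one of 17 genes of mitochondrial DNA replication and transcription that passed against controls without the block. There 6.62% of all genes passed, so a count of 1 in 17 is near the background. With the block 1 of the 17 was higher and 2 were lower. POLRMT, the mitochondrial RNA polymerase, had 0.24 (adjusted p = 0.0754, or 0.0024 with the block), and TFAM, the transcription factor that packs the genome, -0.05 (adjusted p = 0.823). Of the 80 nuclear subunits of complexes I to V, 0 passed without the block (median 0.07) and 16 were higher with it (median 0.12), where 12% of all genes were higher: 9 of 37 in complex I, 0 of 4 in complex II, 3 of 9 in complex III, 2 of 12 in complex IV and 2 of 18 in ATP synthase, the last 2 near the background. The median over all genes was 0.01 in both. Between both GapmeRs 49 of the 80 were lower with GapmeR1 under the block, against 15.3% of all genes, and 1 without it.

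Myeloid markers moved with the same treatment. MPO, a granule enzyme of myeloid cells, was at 291, 293 and 445 CPM with lnc-RTN4R-1 GapmeR2, and the summed level of 6 myeloid markers was 294 to 450 CPM there against 82.5 to 197 CPM in the other 24 libraries. Of the 6, both that could be tested, MPO (1.78) and CSF1R (1.66), were higher, and ELANE was at 0 in all libraries. With lnc-RTN4R-1 GapmeR1 and the block, CSF1R was higher (1.29) and MPO lower (-0.16), and neither passed without it (1.25 and -0.09). Between both GapmeRs without the block MPO differed (-1.87, GapmeR1 minus GapmeR2) and CSF1R did not (-0.41). MPO and CSF1R were also higher with lnc-NKX2-3-1 GapmeR1 (MPO 0.84, CSF1R 1.11), where the mitochondrial mRNAs had a median of 0.05 and 0 calls. With lnc-RTN4R-1 GapmeR2 and no block, 1 of 12 tested B-cell precursor markers was lower (IGLL1, -0.29) and 0 were higher, where 6.62% of all genes passed. With the block 3 of the 12 were higher and 3 lower. TRAC, the only T-cell gene that could be tested, was higher with the block (0.38). The part of this in the mitochondrial result was not tested.

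In the remaining treatment comparisons edgeR's test of all replicates with the low-count filter gave 0 calls without the block and a few with it. lnc-NKX2-3-1 GapmeR1 had lower MT-RNR1 than controls (-0.16 ± 0.058, adjusted p = 0.0316), where 18% of all genes were lower, and lower MT-TQ (-0.64). Against GapmeR2 it had higher MT-CO2 (0.12), MT-ND4L (0.10) and MT-CO1 (0.09), where 21.4% of all genes were higher, so that 3 of 15 is near the background. lnc-ASTN1-1 GapmeR1 had higher MT-ATP8 than GapmeR2 (0.36 ± 0.042), higher MT-ND4L (0.13) and lower MT-ND6 (-0.42 ± 0.051), against 4.29% of all genes in either direction. MT-ATP8 was at 308, 329 and 299 CPM with GapmeR1 and at 230 and 241 with GapmeR2, and MT-ND6 at 71.5, 87.0 and 83.4 CPM against 94.0 and 113. Neither gene overlapped between these groups, but the share of all genes without overlap there was not determined. The last 2 comparisons had 5 libraries each and 1 residual degree of freedom. The GapmeRs against lnc-TIMM21-5 gave 0 of 15 in each comparison, with and without the block.

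Opposite-strand counts of the 14 mRNA and rRNA genes with enough of them gave 0 calls for the pooled GapmeRs of each lncRNA. In these tables the share of all genes that passed was 0.00665% with lnc-TIMM21-5, 0.0135% with lnc-ASTN1-1, 0.483% with lnc-RTN4R-1 and 0% with lnc-NKX2-3-1. With the block 1 passed, the heavy-strand RNA opposite MT-ND6 with lnc-RTN4R-1 GapmeRs (0.18 ± 0.041, adjusted p = 0.0364), where 1.96% of all genes passed.

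The replicate numbers were then compared. In the fit of all 27 libraries with the treatment as a term, 9 of 13 mRNAs, both rRNAs and 6 of 10 tested tRNAs were lower in replicate 3 than in replicates 1 and 2, and none was higher. On this contrast 51.7% of all genes passed and 25.3% were lower, and the median over all genes was 0.01. Libraries of the same number deviated together. In all comparisons of numbers, SE and p thus measure spread between libraries and not between replicate numbers. MT-RNR2 was at 4907 to 6120 CPM in replicate 3 (median 5387, n = 8) and at 5645 to 6650 in replicates 1 and 2 (median 6371, n = 19). The ranges overlapped, yet replicate 3 was below the other replicates of its own group in 8 of 8 groups, and the log2 fold change was -0.25 ± 0.030 (SE, adjusted p = 4.2e-08). MT-RNR1 fell as well (-0.29 ± 0.059, adjusted p = 0.000398). MT-CO2 was at 3985 to 5892 CPM (median 4897) against 5133 to 6353 (median 5591), a change of -0.21, and MT-CYB at 2371 to 3496 (median 2805) against 2946 to 3647 (median 3163), a change of -0.19, both below their own group in 8 of 8 groups. MT-ND3 (-0.21), MT-CO3 (-0.19), MT-ND1 (-0.17), MT-ATP6 (-0.15), MT-ND2 (-0.13), MT-ND4L (-0.13) and MT-ND5 (-0.12) also fell. The share of all genes below their own group in 8 of 8 groups was not determined.

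A few members did not pass. MT-CO1, the largest complex IV subunit, was at 6839 to 9862 CPM in replicate 3 (median 8245) and at 7610 to 9119 in the others (median 8188), with a log2 fold change of 0.02 ± 0.031 and a 95% interval of -0.05 to 0.08 (adjusted p = 0.651). MT-ND4 had -0.01 ± 0.036 with an interval of -0.09 to 0.06 (adjusted p = 0.767). MT-ATP8 (-0.33, adjusted p = 0.136) and MT-ND6 (-0.26, adjusted p = 0.0529) were lower as well, with wide intervals. Among the tRNAs the counts of MT-TT (-0.45), MT-TP (-0.48), MT-TI (-0.44), MT-TQ (-0.38), MT-TE (-0.60) and MT-TS1 (-0.57) fell. Except for MT-TP, their median without strand was 0, so these reads also covered a neighbouring gene. The part of the tRNAs themselves in these changes was not tested.

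**Figure D4:**
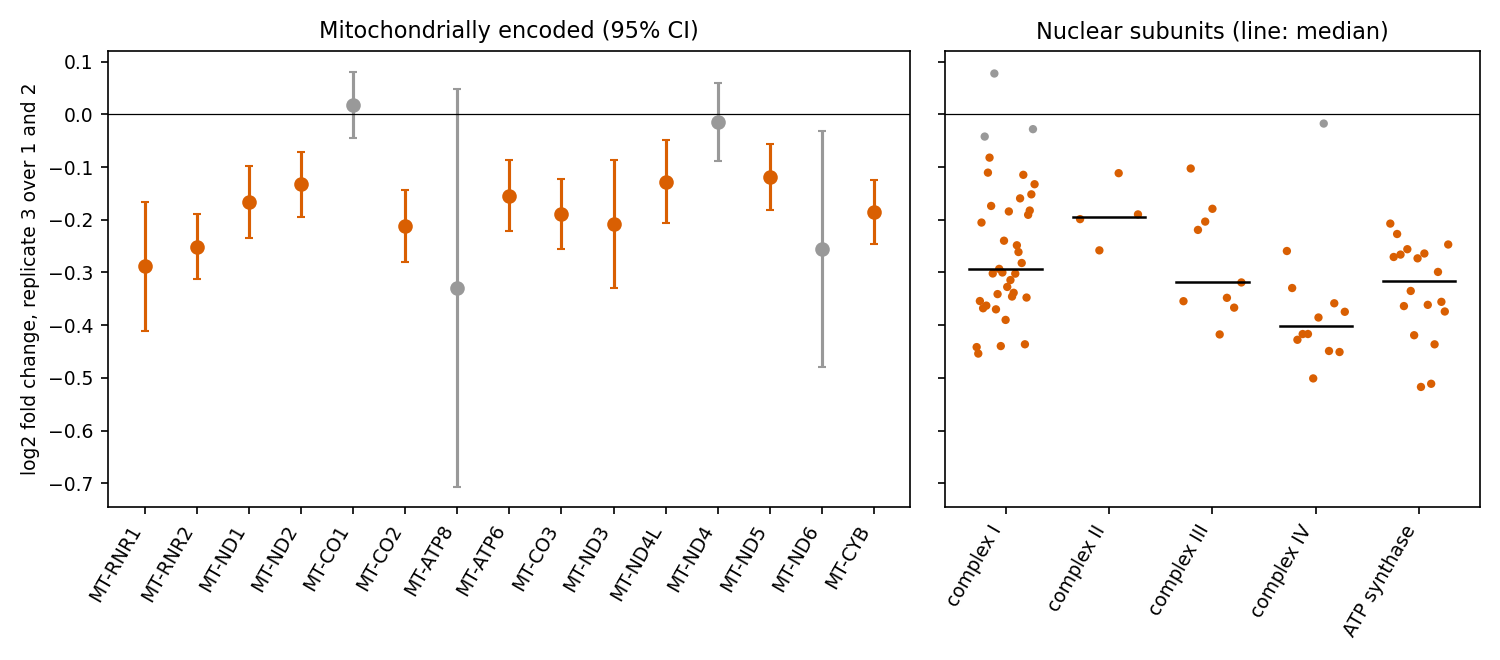
Log2 fold change of replicate 3 over replicates 1 and 2. Left, the 13 mRNAs and 2 rRNAs with 95% intervals; right, the 80 nuclear subunits of complexes I to IV and ATP synthase, 1 point each, with a line at the median. Orange marks an adjusted p under 0.05. MT-CO1 (0.02) and MT-ND4 (-0.01) lie at 0, and 76 of the 80 nuclear subunits are lower.

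The makeup of the mitochondrial mRNA pool also differed by replicate number. MT-CO1 held 21.8% to 22.8% of mitochondrial mRNA counts in the 8 libraries of replicate 3 (median 22.5%) and 19.7% to 21.2% in the other 19 (median 20.8%), with no overlap, and replicate 3 was the highest of its group in 8 of 8 groups. The widest 95% Wilson interval of such a share was 0.113 percentage points to either side. MT-ND4 held 15.6% to 16.6% against 14.2% to 16% and was highest in replicate 3 in 7 of 8 groups. MT-CO2 was the lowest of its group in replicate 3 in 8 of 8 groups (median 13.2% against 14.3%), MT-CYB in 8 of 8 (7.62% against 7.94%) and MT-CO3 in 7 of 8 (13.2% against 14.1%). A rise of one share lowers the others, and these shares were examined after the values had been seen, so no test is given.

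**Figure D5:**
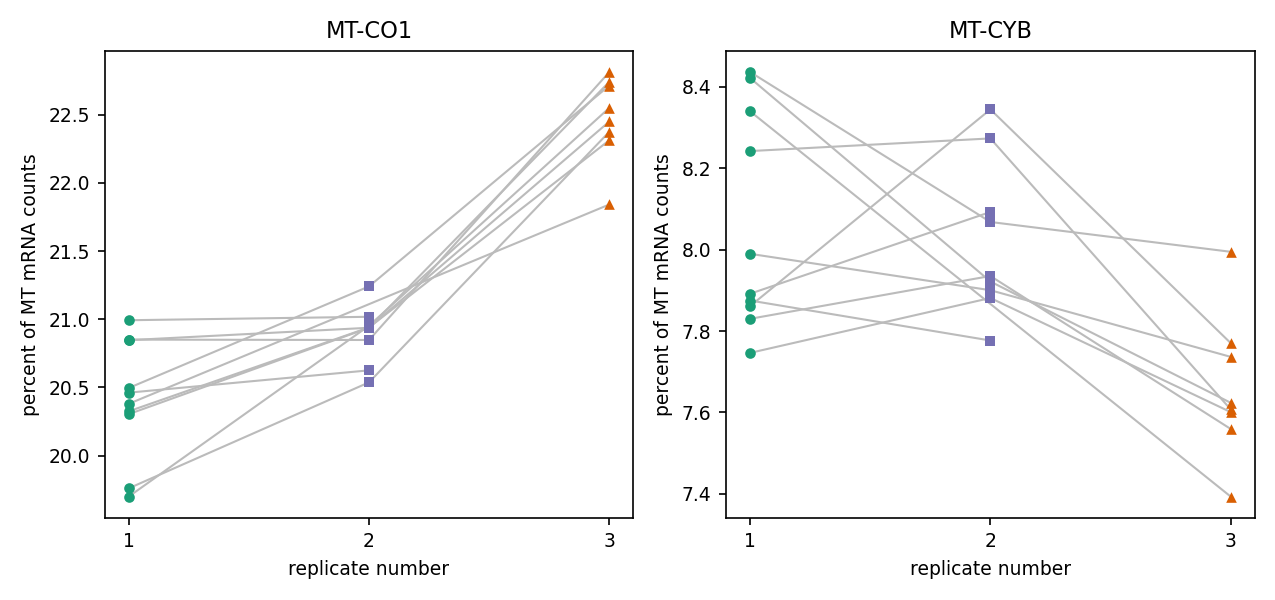
Share of mitochondrial mRNA counts, in percent, held by MT-CO1 (left) and MT-CYB (right) by replicate number, with a grey line for each of the 10 treatment groups. The vertical axes do not start at 0. All 8 libraries of replicate 3 lie above 21.8% for MT-CO1, and the other 19 at or below 21.2%.

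Opposite-strand counts were tested in the same way. Of 14 mRNA and rRNA genes with enough opposite-strand counts, 3 were lower in replicate 3, where 51.7% of all genes passed and 25.3% were lower, so that 3 of 14 is near the background: light-strand RNA over MT-CO1 (-0.34 ± 0.068, adjusted p = 0.000229), MT-CYB (-0.34 ± 0.078, adjusted p = 0.00146) and MT-ND2 (-0.17 ± 0.062, adjusted p = 0.0230). Heavy-strand RNA opposite MT-ND6 did not pass (-0.07, adjusted p = 0.152). Opposite the light-strand tRNAs it was lower over MT-TP (-0.43), MT-TQ (-0.42), MT-TE (-0.35) and MT-TY (-0.23), and did not pass over MT-TC (-0.04), MT-TA (-0.16) and MT-TS1 (-0.23). Heavy-strand reads that covered both MT-TT and MT-TP, or both MT-TI and MT-TQ, enter the counts of both genes. These values are thus not separate from those of MT-TT and MT-TI above.

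Nuclear partners of the mitochondrial genes were read against the 25.3% of all genes that were lower in replicate 3. Of the 80 nuclear subunits of the respiratory chain and ATP synthase 76 fell, with a median of -0.30: 34 of 37 in complex I, 4 of 4 in complex II, 9 of 9 in complex III, 11 of 12 in complex IV and 18 of 18 in ATP synthase. ATP5MC1 (-0.52) and ATP5ME (-0.51) of ATP synthase, COX6C of complex IV (-0.50), NDUFA2 of complex I (-0.45) and UQCRQ of complex III (-0.42) are examples. Of 79 mitochondrial ribosomal proteins tested 64 fell (MRPS28 -0.55, MRPL11 -0.41), as did 14 of 22 mitochondrial tRNA synthetases, with 1 higher. Of 18 genes of mitochondrial RNA processing and decay 10 fell, among them SLIRP (-0.42) and LRPPRC (-0.23), which together bind and stabilise mitochondrial mRNAs. Genes of DNA replication and transcription were mixed, with 7 of 17 lower (TFAM -0.16, SSBP1 -0.30) and 1 higher (TOP1MT 0.17), and 3 of 8 regulators of mitochondrial biogenesis fell, counts not far from that share. Of the nuclear copies of mitochondrial genes with enough counts, MTND2P28 (-0.16), MTATP6P1 (-0.15) and MTCO2P12 (-0.50) fell and MTCO1P12 (0.15) rose. Reads can be split between these copies and the mitochondrial genes, so their values are uncertain. Of the cell type markers, 1 of 2 tested myeloid genes rose (MPO 0.49, summed level of the list 111 to 450 CPM against 82.5 to 297), as did the 1 tested T-cell gene (TRAC 0.59, summed level of the list 15.3 to 24 CPM against 7.84 to 16.5) and the 1 tested erythroid and megakaryocyte gene (GP9 0.68, summed level of the list 0.464 to 1.16 CPM against 0.0548 to 0.918). CD3D, CD3G, HBB, PF4 and PPBP were at 0 in all libraries. Of 12 B-cell precursor markers 4 rose and 5 fell (MME -0.31). Their part in the mitochondrial result was not tested.

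Replicates 1 and 2 differed less. In replicate 2, MT-ND3 was lower (-0.17 ± 0.048, adjusted p = 0.0146) and MT-ND4 higher (0.11 ± 0.029, adjusted p = 0.00381), which is 2 of the 15 genes, while 24.7% of all genes passed, 12.5% higher and 12.1% lower. MT-RNR2 (0.04), MT-CO1 (0.05) and MT-CO2 (-0.05) did not pass.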

How the data were processed

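RNA of 27 REH libraries in 10 groups was sequenced. The authors aligned the reads to hg38 with STAR and deposited raw counts per gene in 3 columns: unstranded, opposite strand and gene's strand. The annotation release is not given in the sources used here. The gene's-strand counts were used as deposited (14627110 to 22750945 per library), and mitochondrial genes were identified through GENCODE v44, which matched 56434 of the 60619 identifiers. The summary rows that name no gene stayed out of library sizes and tests. Gene counts took 80.0% to 84.0% of uniquely mapped reads, and 6.36% to 7.88% of mapped reads matched several places.

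Counts were tested with edgeR 4.0.16 (R 4.3.3): TMM scaling, filterByExpr (minimum count 10, total 15), quasi-likelihood F test and Benjamini-Hochberg adjustment over all genes, at 0.05. CPM are TMM-scaled. Each treatment fit held only the groups compared, and the fits by replicate number held all 27 libraries with the group as a term. For opposite-strand tests, these counts replaced those of the mitochondrial genes. The scripts were tested on simulated data. Alternatives were DESeq2 1.42.0, other scaling, no filter, unstranded counts, NTC alone as control, 1 fit of all samples, leaving out replicates and a replicate block. Same-numbered libraries of different groups deviated together (mean correlation 0.263 over 109 pairs, 94 above 0.1, against -0.130 over 218 pairs of unlike numbers), and the triplicates were made on different days per the methods, so blocked values are printed where they change a call. No pair of replicates agreed within sampling noise (chi-square per degree of freedom 3.45 to 17.4 over 24 pairs). Nuclear copies were found with blastn 2.17.0.

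All mitochondrial mRNAs and rRNAs are named, tRNAs that passed the filter, and of each nuclear list at most 3 called genes with the largest changes plus genes needed to explain it. Members and lists were chosen with earlier results of these data known.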

Additional observations from a re-analysis of the deposited data

Results flagged for a closer look

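In 10 of 75 sets of 4 to 10 libraries tested, 1 library lay far below the others, and in each it was a library of replicate 3. Chance alone flags about 1 in 20 independent sets, but these sets share libraries, hold genes that vary together and mix replicate 3 with replicates 1 and 2, and the 10 come from 3 libraries. Among the controls, replicate 3 of NTC had 4375 CPM of MT-CO2 (next lowest 5349) and 4356 of MT-CO3 (next lowest 5453). Among the lnc-NKX2-3-1 libraries, replicate 3 of GapmeR2 was far below the rest for MT-ND1 (1398 CPM, next 1799), MT-ND2 (1365, next 1685), MT-ATP6 (1848, next 2363), MT-CO3 (4037, next 5265) and MT-CYB (2371, next 2992). Among the lnc-RTN4R-1 libraries, replicate 3 of GapmeR1 was far below the rest for MT-RNR1 (462 CPM, next 575), MT-ND1 (1623, next 1913) and MT-ND3 (491, next 643).

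The 2 GapmeRs of a lncRNA differed for some mitochondrial genes in edgeR's direct test with the replicate block, on the log2 scale as GapmeR1 minus GapmeR2. For lnc-ASTN1-1 these were MT-ATP8 (0.36), MT-ND4L (0.13) and MT-ND6 (-0.42). For lnc-NKX2-3-1 they were MT-CO1 (0.092), MT-CO2 (0.12) and MT-ND4L (0.10). For lnc-RTN4R-1 they were MT-ND1 (-0.14), MT-ND2 (-0.15), MT-CO1 (-0.19), MT-CO2 (-0.22), MT-ATP6 (-0.17), MT-CO3 (-0.22), MT-ND4 (-0.15) and MT-CYB (-0.20). None of them passed in edgeR's test of all replicates without the block and with the low-count filter. Without the block, 1 mRNA or rRNA differed between the lnc-ASTN1-1 GapmeRs with DESeq2 and 1 without the filter. MT-CO2 and MT-CO3 differed between the lnc-RTN4R-1 GapmeRs in replicates 1 and 2 alone.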

How the results depend on the processing

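Over the 17 treatment comparisons, 0 mRNAs and rRNAs passed with other size factors, scaling from nuclear genes, unstranded counts, 1 fit of all samples and, over 12 comparisons, NTC alone as control. DESeq2 gave 3 calls, no low-count filter 4, replicates 1 and 2 alone (chosen after seeing the data) 5 and the replicate block 27. For lnc-ASTN1-1 GapmeR1 against GapmeR2 the count was 1 with DESeq2, 1 without the filter, 1 in replicates 1 and 2 alone, where GapmeR2 has 1 library, assumed to vary like the other group, and 3 with the block. For lnc-ASTN1-1 GapmeR1 against controls it was 1 without the filter, 1 in replicates 1 and 2 alone and 0 to 1 when single libraries were left out (1 without NTC replicate 3). With the block it was 3 for lnc-NKX2-3-1 GapmeR1 against GapmeR2 and 1 for GapmeR1 against controls. For lnc-RTN4R-1 it was 8 with the block and 2 in replicates 1 and 2 alone between both GapmeRs, 1 with the block for GapmeR1, and for GapmeR2 11 with the block, 2 with DESeq2, 2 without the filter and 1 in replicates 1 and 2 alone. For the pooled lnc-RTN4R-1 GapmeRs, opposite-strand counts gave 1 call with the block. The block changed no other call of an mRNA or rRNA. Why these counts differ was not tested. Replicate 2 against replicate 1 gave 1 call without the filter in place of 2. The median share of mitochondrial genes was 4.84% of unstranded counts and 3.69% of uniquely mapped reads.

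Leaving out single libraries turned the sign of lnc-RTN4R-1 differences between both GapmeRs for MT-ATP8 (-0.38 to 0.11), MT-ND5 (-0.092 to 0.031), MT-ND6 (-0.26 to 0.18), MT-RNR1 (-0.19 to 0.000904) and MT-RNR2 (-0.14 to 0.0072), and of MT-ND6 for GapmeR2 against controls (-0.078 to 0.29). Leaving out single groups did so for MT-CO1 (-0.0096 to 0.046) and MT-ND4 (-0.037 to 0.011) in replicate 3. None of these values was called with all libraries. Depth limits the tRNAs, with 4 to 24 counts of MT-TS1 per library.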
